A study of Mus musculus with 16 samples.

Results

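The troponin genes of the mouse were followed through 16 RNA-seq libraries of C2C12 cells. C2C12 is an established line of mouse myoblasts, whose cells join into multinucleate myotubes in low-serum medium. The 8 members were the rows of 2 gene count tables whose Ensembl identifiers carry the symbols *Tnnt1*, *Tnnt2*, *Tnnt3*, *Tnni1*, *Tnni2*, *Tnni3*, *Tnnc1* and *Tnnc2*, out of 49585 rows in each table. They were chosen by name.

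Troponin sits on the thin filament of the sarcomere and makes contraction depend on calcium. Troponin C binds calcium, troponin I holds the filament in its blocked state when calcium is low, and troponin T ties the complex to tropomyosin. Each subunit comes in isoforms from separate genes that are used by slow fibres, fast fibres or the heart, and embryonic skeletal muscle also uses isoforms named for the heart.

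The first table held WT cells and AMPK-KO cells at differentiation day 0 (myoblasts in growth medium, d0) and day 8 (the myotube stage, in low serum, d8). There were 2 libraries in each of 4 groups. The study reports that its AMPK-KO cells no longer differentiated into myotubes. AMPK-KO cells carried CRISPR/Cas9 knockouts of both genes for the catalytic subunit of AMP-activated protein kinase, *Prkaa1* and *Prkaa2*, and the labels do not say which knockout line gave which library. The second table held TET2-WT and TET2-S97E cells, each with 2 clones and 2 libraries per clone. All of them lacked AMPK and carried a FLAG-BirA tag at the endogenous *Tet2* gene, in wild-type form or with the phospho-mimicking S97E change. That table thus has no AMPK-positive control. The study describes these cells as undifferentiated when sequenced. The edited lines were picked as clones, and nothing in the labels says whether the replicates of a group were separate cultures, so that p-values may measure technical spread. Library totals ran from 17883417 to 24663079 counts in the first table and from 19801909 to 37790358 in the second. Levels are given as CPM, counts scaled to the library size after TMM normalization, within each table on its own, and as TPM, scaled to gene length as well, where genes are set against each other.

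The members lie at 5 places in the genome (GRCm38, GENCODE M21). *Tnni1* (chromosome 1, 135779434 to 135810989, plus strand) and *Tnnt2* (chromosome 1, 135836354 to 135852260, plus strand) are 25.4 kb apart. *Tnnt1* (chromosome 7, 4504570 to 4516382, minus strand) and *Tnni3* (chromosome 7, 4518305 to 4524229, minus strand) are 1.92 kb apart. *Tnni2* (chromosome 7, 142441808 to 142444410, plus strand) and *Tnnt3* (chromosome 7, 142498836 to 142516009, plus strand) are 54.4 kb apart. A troponin I gene thus stood next to a troponin T gene at 3 places, while *Tnnc1* (chromosome 14, 31208312 to 31211729, plus strand) and *Tnnc2* (chromosome 2, 164777161 to 164779967, minus strand) stood alone. *Tnnc1* lies within the span of *Nisch* on the opposite strand and shares 0 exon bases with it. *Tnnc2* shares 592 of its 800 merged exon bases (74%) with *Ube2c*, a mitotic ubiquitin-conjugating enzyme gene on the opposite strand. *Tnni3* shares 86 exon bases (4.17%) with *Dnaaf3* on the same strand.

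RefSeq promoter sequence (build GRCm38.p6) was at hand for 6 of the 8 genes. Shown are the 250 bases before the most upstream listed start of the 4 of these genes that were called higher at d8 in both genotypes, since these genes rose together. The windows are chr7:4515976-4516225, minus strand for *Tnnt1*, chr1:135836084-135836333, plus strand for *Tnnt2*, chr1:135799171-135799420, plus strand for *Tnni1* and chr14:31208062-31208311, plus strand for *Tnnc1*. Each runs 5′ to 3′ on the strand of its gene, and capitals mark the letters CANNTG, the E-box bound by MyoD, myogenin and many other basic helix-loop-helix factors.
Tnnt1: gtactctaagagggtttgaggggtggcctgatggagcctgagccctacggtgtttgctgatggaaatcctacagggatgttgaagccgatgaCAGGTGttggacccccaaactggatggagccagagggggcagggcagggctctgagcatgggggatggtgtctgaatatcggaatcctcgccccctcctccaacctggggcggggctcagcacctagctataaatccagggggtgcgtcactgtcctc
Tnnt2: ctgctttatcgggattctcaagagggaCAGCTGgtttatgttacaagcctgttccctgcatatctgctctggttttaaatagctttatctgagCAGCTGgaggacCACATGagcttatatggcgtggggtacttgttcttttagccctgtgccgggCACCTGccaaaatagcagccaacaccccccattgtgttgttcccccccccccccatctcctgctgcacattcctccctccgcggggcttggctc
Tnni1: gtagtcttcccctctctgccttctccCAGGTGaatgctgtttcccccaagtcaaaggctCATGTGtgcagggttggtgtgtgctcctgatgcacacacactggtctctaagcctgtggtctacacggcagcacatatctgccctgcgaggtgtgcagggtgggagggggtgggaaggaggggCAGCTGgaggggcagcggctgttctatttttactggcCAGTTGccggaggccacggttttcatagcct
Tnnc1: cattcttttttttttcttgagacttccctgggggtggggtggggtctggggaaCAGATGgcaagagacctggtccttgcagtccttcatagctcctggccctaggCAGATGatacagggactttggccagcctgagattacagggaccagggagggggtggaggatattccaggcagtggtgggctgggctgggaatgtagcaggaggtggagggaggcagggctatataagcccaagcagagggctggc
The E-box letters, which read the same on either strand, stood 4 times before *Tnnt2*, 4 times before *Tnni1*, 2 times before *Tnnc1* and 1 time before *Tnnt1*. All 6 windows held at least 1 match, beside 66.2% of the 32851 RefSeq windows of the same length, so a match sets the troponin genes little apart. The narrower CAGCTG, which is also a CANNTG, stood 2 times before *Tnnt2* and 1 time before *Tnni1* (13% of windows). CATTCC, the M-CAT letters bound by TEAD factors, was searched on both strands and stood 1 time before *Tnnt2* and 1 time before *Tnnc1* (12.6% of windows). The MEF2 site (2.92% of windows) and the CArG box (1.47%) had 0 matches in the 6 windows. A match is a description of letters and not a bound site.

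Several libraries stood apart. In AMPK-KO d8, replicate 1 had lower CPM than replicate 2 for 6 of the 7 troponin genes with more than 3 counts, by 3.78 to 7.50 fold, and higher CPM for *Tnni3*, by 2.27 fold. In TET2-WT clone 2, replicate 2 was above replicate 1 in 7 of 7 genes, by 2.57 to 9.55 fold. In TET2-S97E clone 2, replicate 1 was the higher library in 7 of 7 genes, by 1.35 to 7.59 fold. WT d8 replicates differed by 1.31 to 1.96 fold. General myotube markers moved with the same libraries. Summed over *Myog*, *Mymk*, *Ckm*, *Acta1* and *Myh3*, of which *Acta1* was the most abundant in every library, they stood at 1425 and 8371 CPM in AMPK-KO d8 and at 20.4 and 153 CPM in TET2-WT clone 2. Whether myotube content differed along with this marker RNA, and what part it had in the troponin values, was not tested. In bulk RNA fewer myotubes and less RNA per myotube cannot be told apart.

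The targeted genes were read first. *Prkaa1* stood at 158 and 158 CPM in WT d0 and at 79.6 and 78.0 CPM in AMPK-KO d0, and at 126 and 125 CPM in WT d8 against 83.3 and 82.4 CPM in AMPK-KO d8. *Prkaa2* stood at 1.69 and 1.79 CPM in WT d0 against 0.209 and 0.420 CPM in AMPK-KO d0, and at 6.22 and 10.1 CPM against 1.26 and 0.825 CPM at d8. Both genes were lower in each AMPK-KO library than in each WT library of the same day. Of the myoblast markers, *Des* was the most abundant in all 16 libraries, and *Myod1*, the myogenic determination factor, stood at 77.4 and 133 CPM in WT d0.

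**Figure D1:**
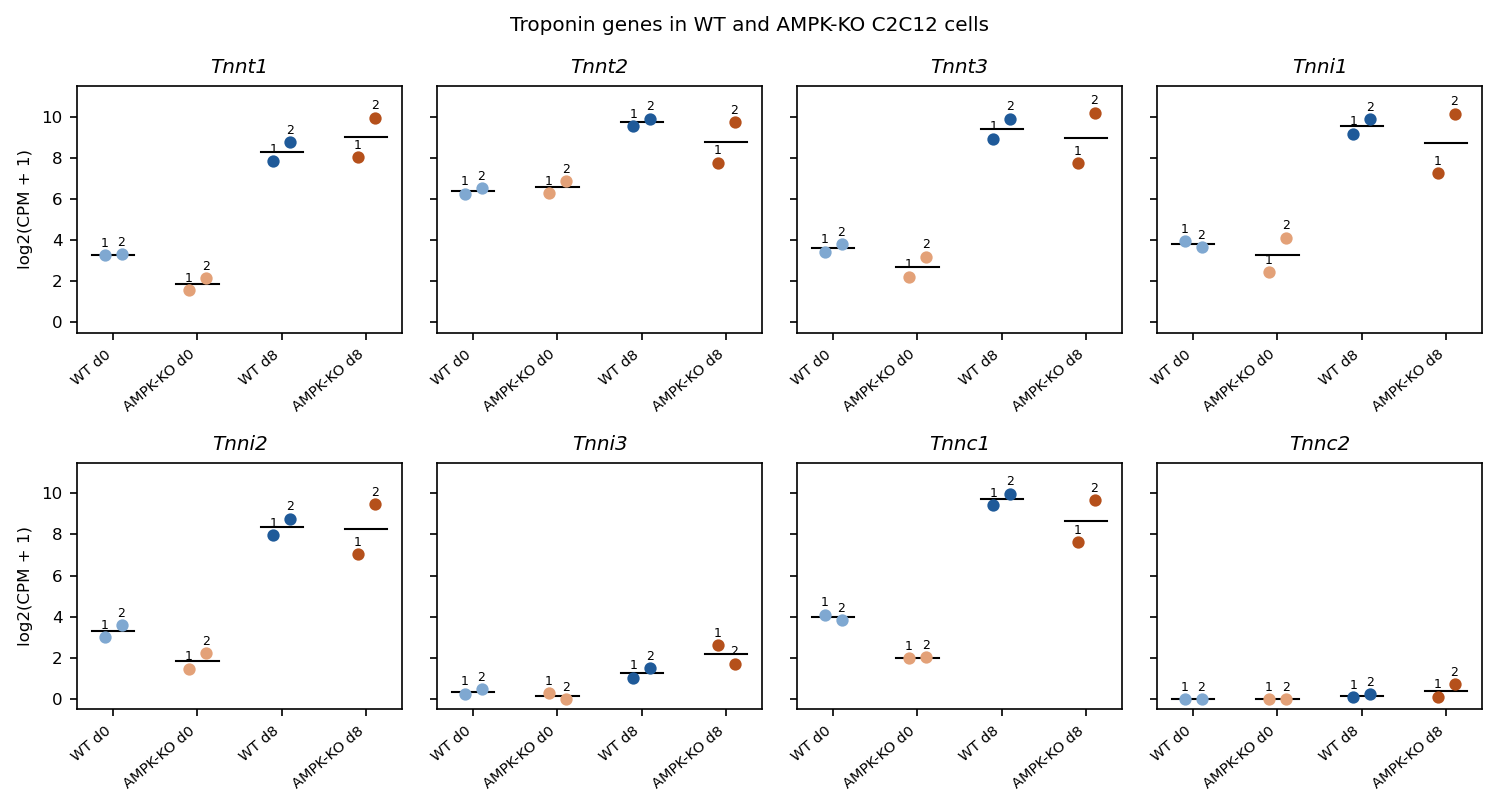
Level of each troponin gene, as log2(CPM + 1), in the 8 libraries of WT and AMPK-KO C2C12 cells. Each point is a library with its replicate number and each bar the mean of 2 libraries. All d8 points of *Tnnt1*, *Tnnt2*, *Tnnt3*, *Tnni1*, *Tnni2* and *Tnnc1* lie above all d0 points, and *Tnnc2* stays near 0.

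From d0 to d8, *Tnnt1*, *Tnnt2*, *Tnnt3*, *Tnni1*, *Tnni2* and *Tnnc1* rose in both WT and AMPK-KO cells, by 3.36 to 5.99 and by 2.46 to 7.86 on the log2 scale. Slow and fast isoforms and the cardiac *Tnnt2* rose together. Of the 8 members 7 passed the filter on low counts, since *Tnnc2* did not, and *Tnni3* passed it through its d8 libraries alone, so its change is given below and not counted here. Of all 14329 genes tested, 5.78% were called higher at d8 in WT and 4.81% in AMPK-KO (edgeR quasi-likelihood test, adjusted p under 0.05). The median log2 fold change was 5.55 over the 6 troponin genes and 0.013 over all genes in WT, and 7.06 and 0.021 in AMPK-KO.

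Of the troponin T genes, which anchor the complex to tropomyosin, slow *Tnnt1* stood at 8.68 and 9.05 CPM in WT d0, 226 and 433 in WT d8, 1.99 and 3.41 in AMPK-KO d0, and 264 and 996 in AMPK-KO d8. The d8 libraries did not overlap the d0 libraries in either genotype. Here and for the genes below, the share of all genes whose days did not overlap was not counted. Its log2 fold change was 5.22 ± 0.71 (SE) in WT (adjusted p = 0.0143, edgeR) and 7.86 ± 0.81 in AMPK-KO (adjusted p = 0.0179). Fast *Tnnt3* stood at 9.88 and 12.9 CPM in WT d0, 488 and 959 in WT d8, 3.66 and 8.22 in AMPK-KO d0, and 214 and 1182 in AMPK-KO d8. It rose by 5.99 ± 0.93 on the log2 scale in WT (edgeR adjusted p = 0.0149) and by 6.87 ± 0.97 in AMPK-KO (adjusted p = 0.0215), with no overlap of days. Cardiac *Tnnt2*, the troponin T that embryonic skeletal muscle shares with the heart, differed from them in its start. It stood at 76.1 and 90.8 CPM in WT d0 and 77.4 and 117 CPM in AMPK-KO d0, then at 740 and 967 CPM in WT d8 and 216 and 854 CPM in AMPK-KO d8. It was thus at 76.1 CPM or more in all 4 d0 libraries of this table. Its fitted rise was the smallest of the called members, 3.36 ± 0.61 in WT (edgeR adjusted p = 0.0197) and 2.46 ± 0.59 in AMPK-KO (adjusted p = 0.0457). The high start did not hold in the AMPK-null TET2-WT cells of the second table, normalized on its own. There *Tnnt2* stood at 4.90 to 40.7 CPM, below *Tnnt1* in each library, and in TET2-S97E at 78.9 to 409 CPM.

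Of the troponin I genes, the inhibitory subunits, slow *Tnni1* stood at 14.4 and 11.6 CPM in WT d0, 582 and 955 in WT d8, 4.39 and 16.4 in AMPK-KO d0, and 152 and 1138 in AMPK-KO d8. It rose by 5.88 ± 1.10 in WT (edgeR adjusted p = 0.0209) and by 5.95 ± 1.10 in AMPK-KO (adjusted p = 0.0263) on the log2 scale. The error was the largest among the called genes in WT, and no d8 library overlapped a d0 library. Fast *Tnni2* stood at 6.99 and 11.1 CPM in WT d0, 251 and 435 in WT d8, 1.78 and 3.69 in AMPK-KO d0, and 131 and 707 in AMPK-KO d8. Its rise was 5.25 ± 0.87 in WT (edgeR adjusted p = 0.0161) and 7.25 ± 0.96 in AMPK-KO (adjusted p = 0.0209), again without overlap. Cardiac *Tnni3*, the only troponin I of the adult heart, was a trace RNA here, with 4 and 7 counts in WT d0, 19 and 39 in WT d8, 4 and 0 in AMPK-KO d0, and 127 and 47 in AMPK-KO d8. Its log2 fold change of 2.32 ± 0.91 in WT missed the threshold (edgeR adjusted p = 0.136), and that of 5.13 ± 1.04 in AMPK-KO passed it (adjusted p = 0.0314), a value that depends on how a library with 0 counts is fitted.

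Of the troponin C genes, the calcium sensors, *Tnnc1*, shared by slow fibres and the heart, stood at 16.2 and 13.3 CPM in WT d0, 692 and 1009 in WT d8, 2.98 and 3.08 in AMPK-KO d0, and 196 and 814 in AMPK-KO d8. It rose by 5.84 ± 0.70 in WT (edgeR adjusted p = 0.0143) and by 7.38 ± 0.76 in AMPK-KO (adjusted p = 0.0179) on the log2 scale, and the days did not overlap. Fast *Tnnc2* had 0 counts in all 4 libraries at d0, 1 and 4 in WT d8, and 2 and 13 in AMPK-KO d8. At d8 it was therefore at or near the floor of 3 counts in 3 of 4 libraries, while the fast genes of the other subunits, *Tnnt3* and *Tnni2*, had between 3206 and 24349 counts there. *Ube2c*, with which most of the *Tnnc2* exon bases are shared, stood at 14.0 and 12 CPM in WT d8, 22.5 and 7.96 CPM in AMPK-KO d8, and 68.0 to 197 CPM at d0. Whether the counting used strand, and how it treated reads over both genes, is not given in the sources used here, and the effect of the shared exons on the *Tnnc2* count was not tested.

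When 1 library was left out, many calls were lost, while the fitted rises of these 6 genes kept their direction. Over the 8 fits that each left out 1 library of the table, the log2 rise in WT ran from 5.52 to 6.06 for *Tnnc1*, 5.46 to 6.17 for *Tnni1*, 4.78 to 5.63 for *Tnni2*, 4.65 to 5.58 for *Tnnt1*, 3.13 to 3.51 for *Tnnt2* and 5.4 to 6.37 for *Tnnt3*. In AMPK-KO it ran from 5.99 to 8.07 for *Tnnc1*, 3.84 to 7.21 for *Tnni1*, 5.54 to 8.01 for *Tnni2*, 6.58 to 8.52 for *Tnnt1*, 1.13 to 3.14 for *Tnnt2* and 5.14 to 7.64 for *Tnnt3*. A group left with 1 library was taken to vary like the other groups. In WT, 4 troponin genes were called without WT d0 replicate 1 (beside 6.46% of all genes called higher), and 0 without WT d0 replicate 2, WT d8 replicate 1 or WT d8 replicate 2, where 0, 2 and 0 of all genes were called as well. In AMPK-KO, 0 were called without either d0 library, where 0 and 1 of all genes were called. There 4 were called without either WT d8 library (beside 1.38 and 1.22%), 6 without AMPK-KO d8 replicate 1 (3.43%) and 5 without AMPK-KO d8 replicate 2 (1.92%). Without either WT d0 library *Tnnt2* was not called in AMPK-KO. Fitted from the libraries of that genotype alone, 6 were called in WT, beside 4.89% of all genes called higher, and 4 in AMPK-KO, beside 2.86%.

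Whether loss of AMPK changed the troponin genes was asked at each day. At d0, *Tnnc1* had the lowest fitted value in AMPK-KO against WT, and *Tnnt2* was the only one of the 7 with a fitted value above 0. No member was called (0 of 7), beside 3.52% of all genes. The log2 fold change of *Tnnc1* was -2.28 ± 0.63 (edgeR adjusted p = 0.106), with both AMPK-KO libraries at about 3 CPM and both WT libraries above 13. That of *Tnnt1* was -1.71 ± 0.67 (edgeR adjusted p = 0.208), without overlap of the groups. *Tnni2* (-1.71 ± 0.81) and *Tnnt3* (-0.93 ± 0.79) also had no overlap, and *Tnni1* (-0.32 ± 0.92) overlapped, with AMPK-KO replicate 2 above both WT libraries. With 2 libraries against 2, chance alone separates the groups fully in about 0.33 of cases. The share of all genes that separated was not counted. *Tnnt2* had a log2 fold change of 0.22 with a 95% interval from -1.11 to 1.54. By DESeq2's Wald test, *Tnnc1* (adjusted p = 0.000808) and *Tnnt1* (adjusted p = 0.0323) were called lower at d0, beside 7.06% of all genes, and edgeR called *Tnnc1* without either AMPK-KO d8 library (beside 3.45 and 3.41%).

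At d8 the AMPK-KO libraries lay on both sides of WT for *Tnnt3*, *Tnni1* and *Tnni2*. No member was called (0 of 7), beside 5.35% of all genes, and no member had an unadjusted p under 0.05. AMPK-KO replicate 1 was below both WT libraries for *Tnnt2*, *Tnnt3*, *Tnni1*, *Tnni2* and *Tnnc1*, while replicate 2 was above both WT libraries for *Tnnt1*, *Tnnt3*, *Tnni1* and *Tnni2*. Within the same-numbered pairs, AMPK-KO was lower in both for *Tnnt2* and *Tnnc1*, higher in both for *Tnnt1* and *Tnni3*, and lower in one and higher in the other for *Tnnt3*, *Tnni1* and *Tnni2*. With the pairs as a block, no member was called either. Without the block the fitted values ran from -0.75 ± 0.57 for *Tnnc1* to 1.37 ± 0.79 for *Tnni3*. The 95% interval reached from -2.33 to 1.83 for *Tnni1*, from -1.40 to 1.97 for *Tnni2* and from -1.80 to 1.70 for *Tnnt3*. Without AMPK-KO d8 replicate 2, *Tnnc1* and *Tnnt2* were called lower in AMPK-KO, beside 2.47% of all genes, and without replicate 1 none was, beside 1.2%, with the lone AMPK-KO d8 library taken to vary like the other groups. With *Tnni3* the order was different, since 5.18 and 2.28 CPM in AMPK-KO d8 both lay above 1.05 and 1.83 CPM in WT d8, and the difference missed the threshold (edgeR adjusted p = 0.352).

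The rise from d0 to d8 was compared between genotypes by an interaction term. No troponin gene was called (0 of 7), and 0% of all genes were. In edgeR 729 of the 14329 had an unadjusted p under 0.05, close to the share of 0.05 that chance alone would give. By DESeq2's Wald test 0 members and 60 genes were called. The fitted difference was 2.64 ± 0.89 on the log2 scale for *Tnnt1* (edgeR adjusted p = 0.892), that is a larger fitted rise in AMPK-KO, from the lower start. For *Tnnt2* it was -0.89 ± 0.80, the only negative value among the 7, and for *Tnni1* 0.07 ± 1.27. The comparisons of days and of genotypes share libraries, so their values are given side by side and were not tested against each other.

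**Figure D2:**
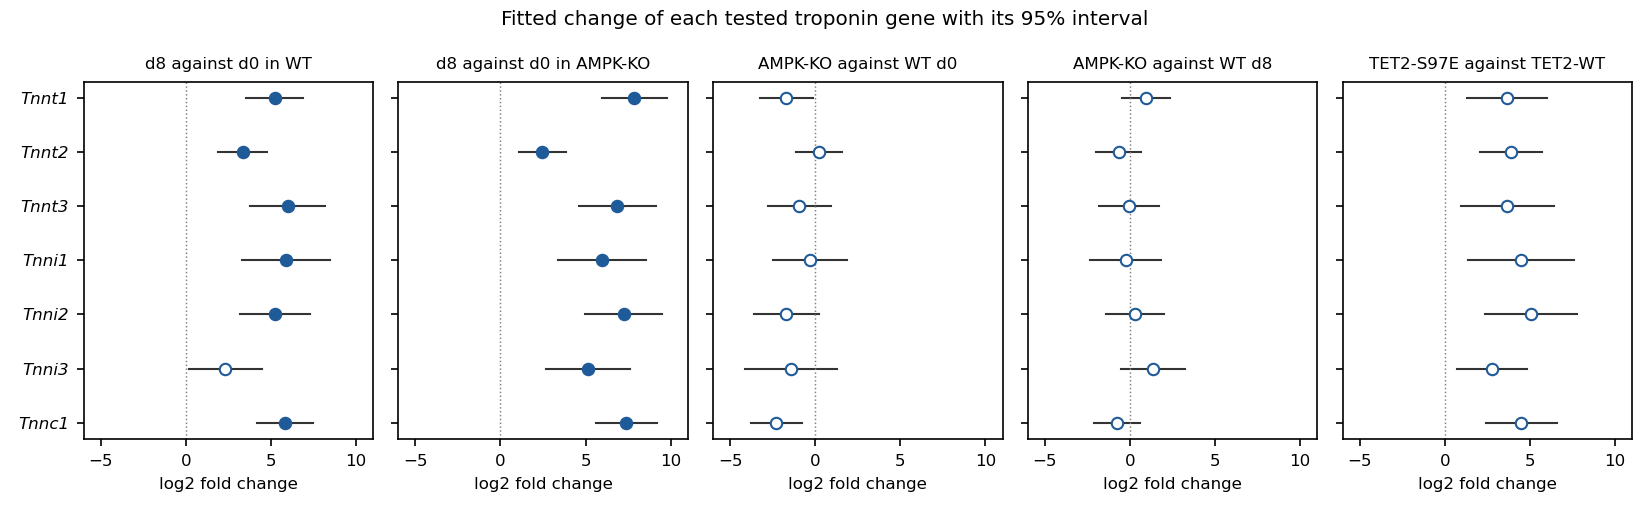
Fitted log2 fold change of the 7 tested troponin genes with its 95% interval, in 5 comparisons. Filled points passed an adjusted p of 0.05 (edgeR). The day comparisons lie at 2.32 or above, and the AMPK-KO comparisons between -2.28 and 1.37. All 7 TET2-S97E intervals lie above 0 without a call.

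The second table asked what the S97E form of TET2 did in AMPK-null myoblasts. Troponin genes were higher in TET2-S97E than in TET2-WT in the fit, by 2.78 to 5.08 on the log2 scale. The study describes these cells as undifferentiated, and their myotube markers are given below. With the 4 clones as replicates no member was called (0 of 7), and 0% of all genes were, although all 7 had unadjusted p values from 0.00223 to 0.0176 and 1575 of 15126 genes had one under 0.05. The median over the 7 was 3.90, beside -0.0058 over all genes. With the 8 libraries as replicates, which treats libraries of a clone as independent, edgeR called 5 of 7 higher, beside 3.71% of all genes. These 5 genes, *Tnnc1*, *Tnni1*, *Tnni2*, *Tnnt1* and *Tnnt2*, had adjusted p from 0.0160 to 0.0397, and *Tnni3* (0.0512) and *Tnnt3* (0.0550) missed the threshold in that edgeR fit. DESeq2's Wald test on the clones called *Tnnc1*, *Tnnt2*, *Tnni2* and *Tnni3* higher, beside 2.39% of all genes. With a random effect for clone, limma-voom called *Tnnt2* and *Tnni3* higher, beside 0.677%.

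Among troponin T genes, *Tnnt1* stood at 12.3 and 12.9 CPM in TET2-WT clone 1, 11.2 and 58.8 in TET2-WT clone 2, 738 and 404 in TET2-S97E clone 1, and 171 and 66.4 in TET2-S97E clone 2. *Tnnt2* stood at 6.66 and 7.54, 4.90 and 40.7, 409 and 273, and 281 and 78.9 CPM in the same order. For both, all 4 TET2-S97E libraries lay above all 4 TET2-WT libraries. The share of all genes whose genotypes separated in this way was not counted, here or for the genes below. *Tnnt3* stood at 5.39 and 6.51, 9.34 and 64.4, 785 and 276, and 258 and 39.2 CPM, and here TET2-WT clone 2 replicate 2 lay above TET2-S97E clone 2 replicate 2. The fitted log2 differences over the clones were 3.66 ± 0.94 for *Tnnt1*, 3.90 ± 0.72 for *Tnnt2* and 3.69 ± 1.09 for *Tnnt3* (edgeR adjusted p = 0.336, 0.277 and 0.366).

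Among troponin I genes, *Tnni1* stood at 2.49 and 3.68 CPM in TET2-WT clone 1, 4.30 and 33.6 in TET2-WT clone 2, 735 and 281 in TET2-S97E clone 1, and 149 and 28.6 in TET2-S97E clone 2. *Tnni2* stood at 0.861 and 1.38, 1.92 and 14.2, 415 and 138, and 192 and 30.7 CPM in that order. The genotypes overlapped for *Tnni1* and not for *Tnni2*, whose log2 difference of 5.08 ± 1.08 was the largest of the 7 (edgeR adjusted p = 0.305). *Tnni3* stood at 0.272 and 0.503, 0.412 and 3.94, 9.56 and 11.6, and 10.3 and 7.62 CPM. Its TET2-S97E libraries differed by less than those of the other members and did not overlap TET2-WT, with a log2 difference of 2.78 ± 0.82 (edgeR adjusted p = 0.366). The calcium sensor *Tnnc1* stood at 2.81 and 3.65, 6.50 and 16.7, 422 and 152, and 201 and 26.4 CPM. It too had no overlap, and its log2 difference was 4.49 ± 0.83 (edgeR adjusted p = 0.277). *Tnnc2* had 0 counts in the 4 TET2-WT libraries, 4 and 5 in TET2-S97E clone 1, and 1 and 0 in clone 2.

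**Figure D3:**
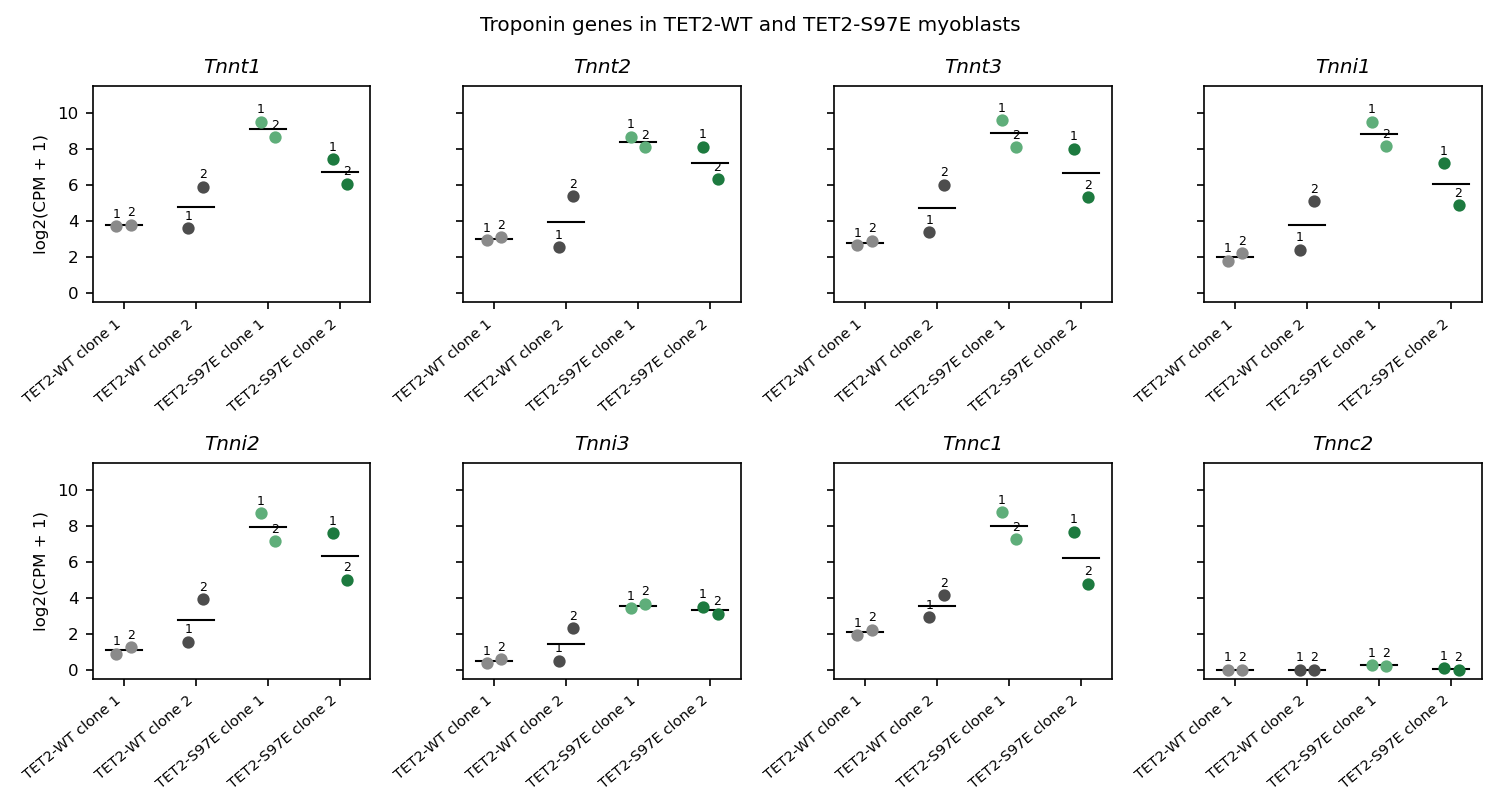
Level of each troponin gene, as log2(CPM + 1), in the 8 libraries of AMPK-null TET2-WT and TET2-S97E myoblasts. Each point is a library with its replicate number and each bar the mean of the 2 libraries of a clone. TET2-S97E clone 1 has the highest mean for all 8 genes. TET2-WT clone 2 replicate 2 stands above the other TET2-WT libraries for every gene but *Tnnc2*.

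The clones of a genotype were not alike. In TET2-S97E the fitted value of clone 2 was below that of clone 1 for 7 of 7 genes. The log2 difference ran from -2.52 for *Tnni1* (edgeR adjusted p = 0.164) to -0.25 for *Tnni3*. The lowest p was that of *Tnnt1* (-2.27, edgeR adjusted p = 0.0882), and 0 were called, beside 6.17% of all genes. In TET2-WT clone 2 was above clone 1 for 7 of 7, by 1.48 to 2.82 on the log2 scale, and 0 were called, beside 0.858% of all genes. Without TET2-WT clone 2 replicate 2, the fitted clone difference in TET2-WT was -0.17 for *Tnnt1* and -0.54 for *Tnnt2*, so that library set the direction for these genes. Without TET2-S97E clone 2, 6 members were called higher in TET2-S97E, beside 0.865% of all genes, and without TET2-S97E clone 1, 2 were (*Tnnc1* and *Tnnt2*), beside 0.594%, with the lone clone taken to vary like those of the other genotype. Leaving out either TET2-WT clone gave 0 members and 0 of all genes.

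Myotube markers moved with the troponin genes in this table as well. The summed level of the 5 markers was 5.39 and 7.09 CPM in TET2-WT clone 1, 20.4 and 153 in TET2-WT clone 2, 4004 and 1228 in TET2-S97E clone 1, and 1322 and 287 in TET2-S97E clone 2. *Myog*, the differentiation factor myogenin, stood at 0.408 and 0.635, 2.11 and 13.8, 141 and 179, and 56.7 and 42.0 CPM in that order. The TET2-S97E libraries, from cells described as undifferentiated, thus had 287 to 4004 CPM of myotube marker RNA, beside 5.39 to 153 CPM in TET2-WT. In the first table the markers summed to 144 and 86.6 CPM in WT d0, 14.3 and 3.83 in AMPK-KO d0, 4442 and 5794 in WT d8, and 1425 and 8371 in AMPK-KO d8. The 8 troponin genes together stood at 132 and 149 CPM in WT d0 and 92.4 and 151 CPM in AMPK-KO d0, most of it *Tnnt2*. The d0 groups therefore overlapped in summed troponin and not in marker RNA. The share of counts on mitochondrial genes was also higher in every TET2-S97E library and in TET2-WT clone 2 replicate 2 than in the other TET2-WT libraries. It was 1.14 and 1.00% in TET2-WT clone 1, 1.38 and 2.15% in TET2-WT clone 2, 2.29 and 2.12% in TET2-S97E clone 1, and 2.03 and 2.09% in TET2-S97E clone 2. Within TET2-WT clone 1 (30.8 and 36.2 CPM of summed troponin) and TET2-S97E clone 2 (1262 and 278 CPM) this share ran against the troponin level. Within the other clones it ran with it. The part of myotube content and of mitochondrial RNA in the genotype differences was not tested.

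**Figure D4:**
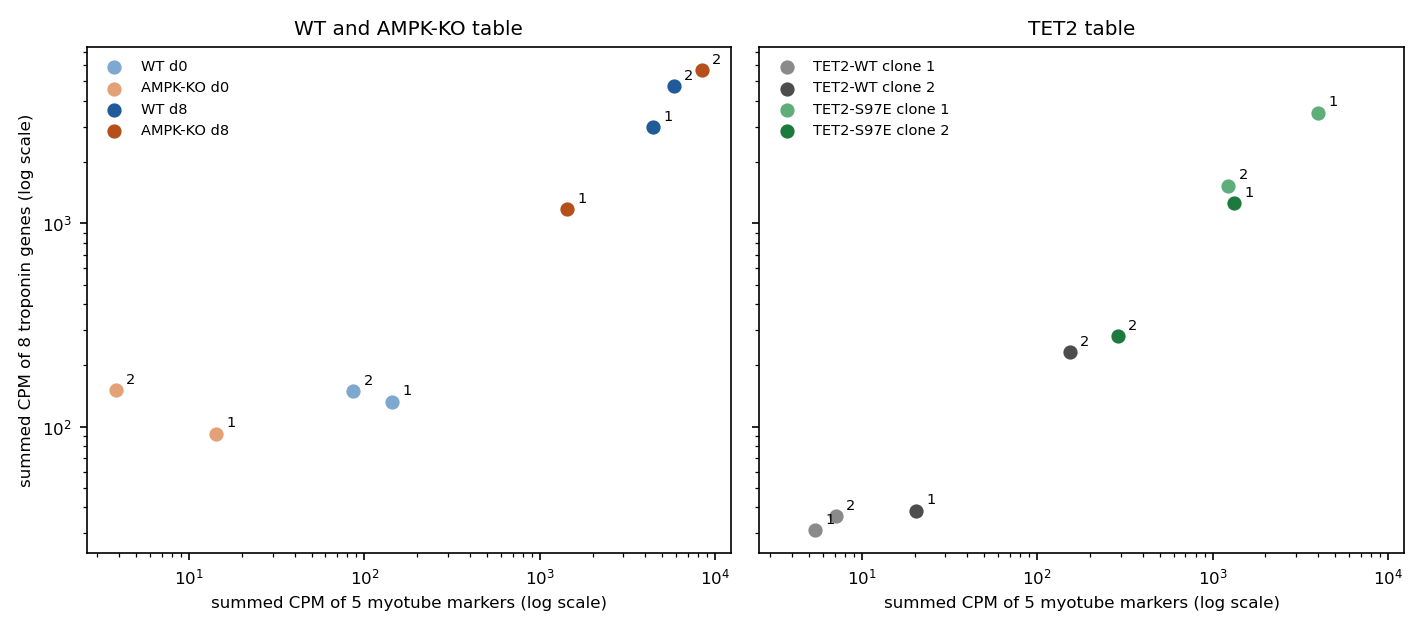
Summed CPM of the 8 troponin genes against summed CPM of 5 myotube markers, both on log scales, 1 point per library with its replicate number. The left panel shows the WT and AMPK-KO table and the right panel the TET2 table. The d0 libraries on the left lie between 92.4 and 151 CPM of troponin while their markers run from 3.83 to 144 CPM, and on the right both sums are lowest in TET2-WT clone 1.

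Isoform makeup was read within each subunit, as shares of TPM over merged exons. Cardiac *Tnnt2* made up 49.1 and 48.9% of troponin T in WT d0 and 75.6 and 69.1% in AMPK-KO d0, and 18.8 and 13.5% in WT d8 and 9.88 and 8.42% in AMPK-KO d8. By this length fast *Tnnt3* was the largest share at d8, at 60.9 and 65.3% in the WT libraries against 47.8 and 57.1% in those of AMPK-KO. With coding transcript lengths the largest mean share was instead that of *Tnnt2* in WT d8 (43.2%, beside 37.99% for *Tnnt3*) and of *Tnnt1* in AMPK-KO d8 (38.2%, beside 34.7%), and the same genes led in CPM without length scaling. Slow *Tnnt1* took 20.3 and 21.2% in WT d8 and 42.3 and 34.5% in AMPK-KO d8, without overlap of the genotypes. The log2 ratio of fast *Tnnt3* to the other troponin T genes was higher by 1.82 at d8 than at d0 in WT and by 2.10 in AMPK-KO, and was lower in AMPK-KO by 0.91 at d0 and by 0.64 at d8. Each of these 4 differences had an exact permutation p of 0.333, two-sided, the smallest that 2 libraries against 2 allow. The difference at d8 depended on the length, since it was -0.21 with coding transcript lengths and -0.14 without length scaling, where the genotypes overlapped (exact permutation p = 0.667 for each, two-sided).

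Against slow *Tnnt1* alone, where gene length drops out of every difference, fast *Tnnt3* moved otherwise. The log2 ratio of *Tnnt3* to *Tnnt1* was higher at d8 than at d0 by 0.78 in WT and lower by 1.10 in AMPK-KO. In AMPK-KO it was higher than in WT by 0.73 at d0 and lower by 1.16 at d8. The SD of a group in these comparisons was at most 0.39, and the exact permutation p was 0.333 for each, two-sided. This ratio was chosen after the data were seen, and the design cannot pass the threshold.

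Troponin I was mostly *Tnni1* and *Tnni2* in every library. Fast *Tnni2* made up 53.3 and 68.4% of troponin I in WT d0, 47.3 and 35.2% in AMPK-KO d0, 50.9 and 52.2% in WT d8, and 66.1 and 59.8% in AMPK-KO d8. Which gene led depended on the length here too, since in WT d8 *Tnni2* had 37.4 and 38.6% with coding transcript lengths and 30.1 and 31.3% without length scaling. The log2 ratio of *Tnni2* to the other troponin I genes was lower in AMPK-KO by 1.17 at d0 and higher by 0.68 at d8 (exact permutation p = 0.333 for each, two-sided). Cardiac *Tnni3* took at most 4.04% in the first table. In the second it took 7.45 to 11.2% in the 4 TET2-WT libraries and 0.955, 3.19, 2.85 and 11.49% in those of TET2-S97E, so the genotypes overlapped. In the TET2 table fast *Tnni2* made up 41.1 and 42.1% in TET2-WT clone 1, 47.9 and 45.8% in TET2-WT clone 2, 57.0 and 52.4% in TET2-S97E clone 1, and 73.5 and 63.8% in TET2-S97E clone 2. All 4 TET2-S97E libraries lay above all 4 TET2-WT libraries, with a log2 ratio higher by 1.04 over the clones (exact permutation p = 0.333, two-sided). For troponin T of the TET2 table the genotypes overlapped and the difference was 0.28, below the SD of 0.72 between clones. Troponin C was read from *Tnnc1* alone, because of the few *Tnnc2* counts.

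**Figure D5:**
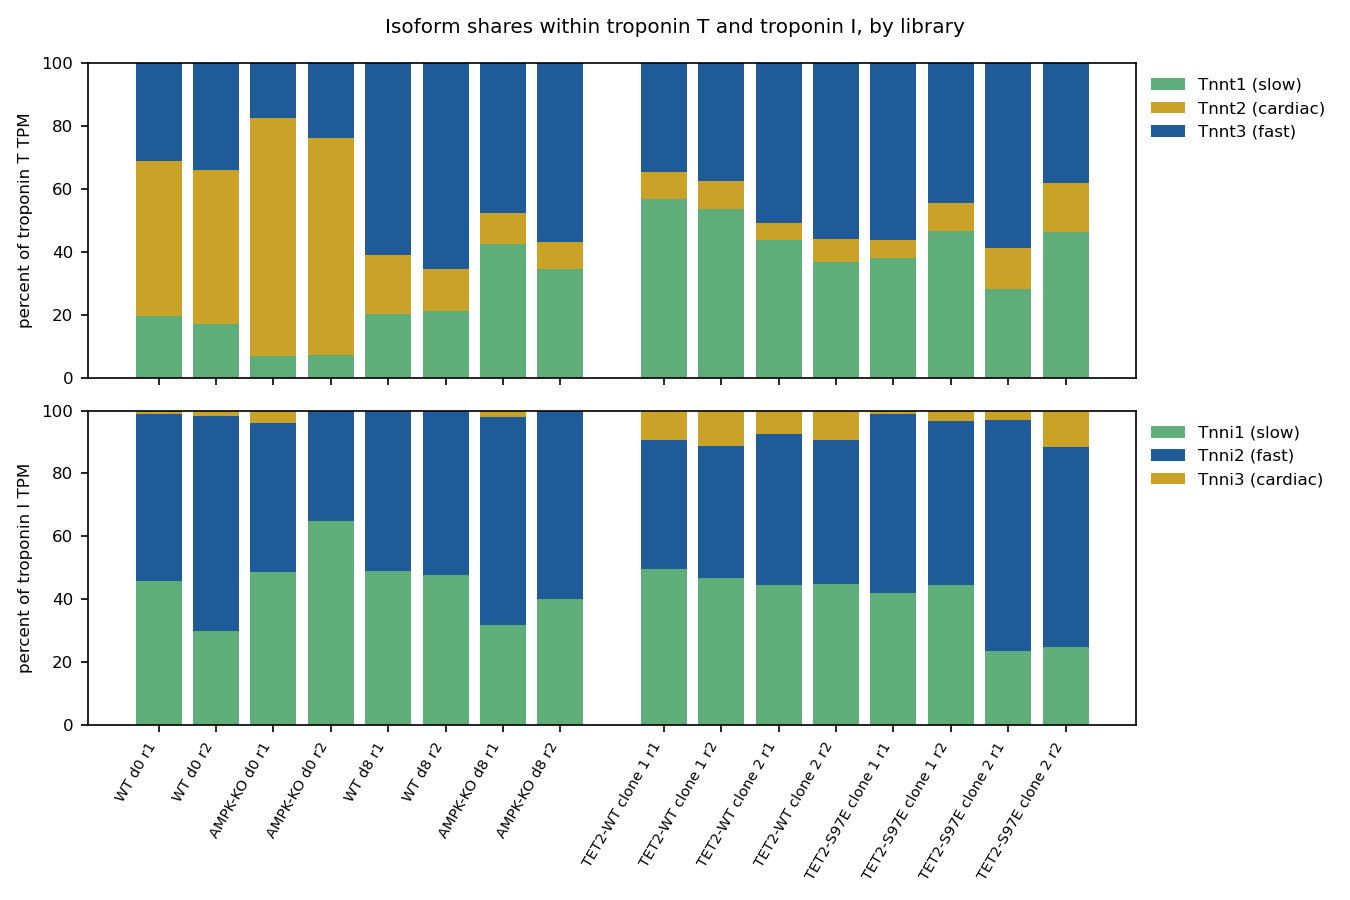
Share of each isoform gene in the summed TPM of troponin T (upper panel) and troponin I (lower panel), 1 bar per library, with r1 and r2 for replicates. With merged exon lengths, *Tnnt2* is the largest share of troponin T in the 4 d0 libraries on the left, from 48.9 to 75.6%, and at most 18.8% in the other libraries.

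Between genes, levels depend on the length assigned to each. By TPM over merged exons, the order in WT d8 was *Tnnc1* (2460 and 3562), *Tnnt3* (1142 and 2227), *Tnni2* (621 and 1068), *Tnni1* (598 and 975), *Tnnt1* (380 and 723), *Tnnt2* (353 and 459), *Tnni3* (1.88 and 3.26) and *Tnnc2* (0.255 and 0.862). The neighbours from *Tnni2* to *Tnnt2* in this order overlapped across libraries. *Tnnc1* ranked 19 and *Tnnt3* ranked 48 by mean TPM among 49326 genes in WT d8, and *Tnni3* ranked 11972. The merged exons of *Tnnt2* come to 7752 bases, and its median protein-coding transcript to 1104. With coding transcript lengths, *Tnnt2* had 18.7% of the summed troponin TPM in WT d8 in place of 5.72%, next after *Tnnc1* (28.2% in place of 41.9%). The place of *Tnnt2* among the troponin genes therefore rests on the length used, and its differences between libraries do not.

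Other genes of the contractile machinery were read from lists. Of 14 thin filament partners tested, which include actins, tropomyosins, nebulins and tropomodulins, 7 were called higher and 1 lower at d8 in WT, beside 5.78% and 6.58% of all genes, and 8 higher in AMPK-KO, beside 4.81%. *Acta1*, skeletal actin, rose by 5.92 ± 1.06 on the log2 scale in WT and by 8.93 ± 1.21 in AMPK-KO (edgeR adjusted p = 0.0182 and 0.0209). *Tmod1*, which caps the pointed end of the filament, rose by 7.29 ± 0.92 in AMPK-KO (edgeR adjusted p = 0.0202). At d0, *Tmod3* (-0.95 ± 0.14) and *Tmod1* (-4.79 ± 0.90, with 3 and 5 counts in AMPK-KO d0) were called lower in AMPK-KO, with edgeR adjusted p of 0.0172 and 0.0370. *Tmod3* (-0.75 ± 0.14) was also called lower at d8 (edgeR adjusted p = 0.0279), where 0 were higher. Of all genes, 3.52% were called between the genotypes at d0 and 5.35% at d8, in either direction. *Nebl* had 0 counts in the 4 AMPK-KO libraries and passed the filter through WT alone, so its calls at both days are not counted. Against a floor of 3 counts per library it was at least 16.8-fold lower at d0 and at least 22.3-fold lower at d8.

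The calcium release and uptake genes have products that raise and lower the calcium that troponin C senses. At d8, 12 of 13 were called higher in WT and 10 of 13 in AMPK-KO, beside 5.78% and 4.81% of all genes. *Casq1* and *Pln* passed the filter through their d8 libraries alone and were left aside. *Srl* rose by 4.80 ± 0.57 in WT and by 6.11 ± 0.61 in AMPK-KO (edgeR adjusted p = 0.0143 and 0.0179), and *Casq2*, the slow and cardiac calsequestrin, by 6.41 ± 0.92 in WT (adjusted p = 0.0143). In AMPK-KO against WT at d0, *Stac3*, a part of excitation-contraction coupling, was called lower (-2.41 ± 0.43, edgeR adjusted p = 0.0330). None was higher, beside 3.52% of all genes called in either direction. At d8 none was called, beside 5.35%. *Ryr1*, the release channel, had -2.88 ± 0.64 at d0 (edgeR adjusted p = 0.0602).

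Of 10 fast and 9 slow fibre genes tested, 5 and 6 passed the filter through their d8 libraries alone. Of the others, 4 of 5 fast fibre genes were called higher at d8 in WT and 5 of 5 in AMPK-KO, and 2 of 3 slow fibre genes in each. Of all genes, 5.78% were called higher at d8 in WT and 4.81% in AMPK-KO. Fast *Mylpf* rose by 5.29 ± 0.75 in WT and by 8.34 ± 0.87 in AMPK-KO (edgeR adjusted p = 0.0143 and 0.0179), and slow *Myl6b* rose by 4.01 ± 0.47 in AMPK-KO (edgeR adjusted p = 0.0189). Neither list had a call in AMPK-KO against WT, beside 3.52% of all genes at d0 and 5.35% at d8. In these comparisons *Mybpc2*, *Myh2* and *Pvalb* passed the filter through WT alone. Over the 7 other fast fibre genes the median was -2.90 at d0 and -0.88 at d8. Over the 9 slow fibre genes it was -2.10 at d0, or -1.20 with genes at 0 counts in AMPK-KO d0 set against the floor, and -0.24 at d8. The medians were -1.44 and -0.05 over the 7 troponin genes, and -0.0010 over all genes at d0. The troponin median at d0 was the value of the low-count *Tnni3*, which had 0 counts in AMPK-KO d0 replicate 2. The developmental myosin genes *Myh3* and *Myl4* were called higher at d8 in both genotypes (the third, *Myh8*, passed the filter through d8 alone), with *Myh3*, embryonic myosin, at 11.95 and 13.2 CPM in WT d0 and 0.209 and 0.140 CPM in AMPK-KO d0.

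Of 15 transcription factors of myogenesis and fibre type tested, *Myog* (-5.36 ± 0.68) and *Myod1* (-3.29 ± 0.45) were called lower in AMPK-KO at d0 (edgeR adjusted p = 0.0116 and 0.0147). *Myog* stood at 29.5 and 19.6 CPM in WT d0 against 0.628 and 0.561 CPM in AMPK-KO d0, while *Tnnt2* in the same libraries overlapped. At d8, *Tbx15* (-1.77 ± 0.18) and *Tead4* (-1.86 ± 0.32) were called lower (edgeR adjusted p = 0.00494 and 0.0241), and none higher. Of all genes, 3.52% were called between the genotypes at d0 and 5.35% at d8, in either direction. *Prox1* had 0 counts in both AMPK-KO d8 libraries and passed the filter through WT alone, so its call is not counted, and against the floor it was at least 21.4-fold lower. From d0 to d8, *Myog* rose by 3.80 ± 0.56 in WT and 7.73 ± 0.72 in AMPK-KO (edgeR adjusted p = 0.0143 and 0.0179), with 5 factors higher and 1 lower in WT (all genes 5.78% and 6.58%) and 4 higher in AMPK-KO (4.81%). *Myod1* rose by 3.01 ± 0.44 in AMPK-KO (edgeR adjusted p = 0.0217).

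In TET2-S97E against TET2-WT over the clones none of these 6 lists had a call in edgeR, as none of all genes had. Through the TET2-S97E clones alone, 6 of 9 slow fibre genes, 4 of 8 fast fibre genes, 3 of 15 calcium genes and 2 of 13 thin filament partners passed the filter, while the 7 troponin genes passed it in the TET2-WT clones too. Over the genes that did so, the medians were 1.21 for 3 slow fibre genes, 3.34 for 4 fast fibre genes, 3.25 for 12 calcium genes, 0.97 for 11 thin filament partners, 4.12 for 2 developmental myosin genes and 0.28 for 14 transcription factors, beside 3.90 for the 7 troponin genes. The lowest p values belonged to *Myl2*, the slow and cardiac myosin light chain (8.05 ± 0.90, edgeR adjusted p = 0.257), *Myl4* (4.50 ± 0.57, adjusted p = 0.277), *Srl* (4.19 ± 0.78, adjusted p = 0.277), *Atp2a1* (4.39 ± 0.91, adjusted p = 0.305), *Mef2c* (1.91 ± 0.44, adjusted p = 0.305) and *Lmod2* (4.76 ± 1.14, adjusted p = 0.314) in their lists. *Myl2* and *Lmod2* are among those that passed through TET2-S97E alone, and *Myl2* had 2 counts in 1 TET2-WT library and 0 in the other 3, so that its fitted size depends on how zeros are fitted. *Myog* had 4.52 ± 1.33 (adjusted p = 0.366).

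The genes outside the troponin family most alike in pattern were found by Pearson's r of log2(CPM + 1) over the 8 libraries of a table, which share the split into days or genotypes, so that high values are common. In the first table *Tnnc1* was most like *Hrc* (r = 0.999), *Hfe2* (0.998) and *Mymx* (0.997), and *Tnnt3* and *Tnni2* shared *Tmem38a* and *Unc45b* as their nearest genes outside the family (r from 0.994 to 0.999), followed by *Calcoco1* for *Tnnt3* (0.995) and *Map1lc3a* for *Tnni2* (0.993). *Hrc* and *Tmem38a* act in calcium handling of the sarcoplasmic reticulum, and *Unc45b* is a myosin chaperone. *Tnni1* was most like *Klhl41*, *Pde4dip* and *Pdk2*, *Tnnt1* most like *Rab5b*, *Gpr108* and *Tspan33*, and *Tnnt2* most like *Nkiras1*, *Txlnb* and *Fsd2* (r from 0.992 to 0.996). For the low-count *Tnni3* they were *Zkscan3*, *Pramef8* and *Nr1i2* (0.977 to 0.991). Among the 7 members themselves r ran from 0.612 to 0.997 in the first table and from 0.915 to 0.995 in the second. Some members were thus closer to each other than to any other gene named, as *Tnnt3* was to *Tnni1* in the second table (0.995).

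In the TET2 table, again outside the family, *Tnni2* was most like *Atp2a1*, the fast calcium pump (r = 0.999), *Mybph* (0.998) and *Ckm*, muscle creatine kinase (0.998), and *Tnnt2* most like *Atp2a1*, *Ckm* and *Hrc* (0.989 to 0.991). *Tnnt1* and *Tnni1* shared *Chrng*, the embryonic acetylcholine receptor subunit, and *Dlgap4* (0.991 to 0.995), beside *Synpo2l* for *Tnnt1* and *Mylpf* for *Tnni1*. *Tnnt3* was most like *Mylpf*, *Usp2* and *Nmrk2* (0.990 to 0.993), and *Tnnc1* most like *Srl*, *Trim72* and *Cacna1s* (0.994 to 0.996). *Tnni3* was most like *Neb*, *Zfp651* and *Myog* (0.977 to 0.990).

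Since *Tnnt2*, *Tnni3* and *Tnnc1* are also heart genes, 9 cardiomyocyte markers were read beside them. Summed, they ran from 19.9 to 45.6 CPM in the first table and from 23.5 to 40.8 CPM in the second, with *Gata4* the most abundant in every library at 15.1 to 40.5 CPM. Between 3 and 7 of the 9 had 0 counts in a library. *Nppa*, atrial natriuretic peptide, had at most 0.106 CPM in any library, and *Tbx5* at most 0.448. *Myh6*, the alpha cardiac myosin, stood at 0 to 0.108 CPM at d0 and 0.285 to 3.98 CPM at d8 in the first table, and reached 13.1 CPM in TET2-S97E clone 2 replicate 1. In the 4 d8 libraries *Nppa* and *Hand2* had 0 counts and *Gata4* stood at 15.1 to 19.4 CPM, while *Tnnt2* and *Tnnc1* stood at 196 CPM or more. The part of cardiac marker RNA in the troponin values was not tested. Smooth muscle markers, led by *Acta2*, summed to 860 to 2730 CPM in the first table, with 0 of 4 tested called between genotypes or days. In the second table they summed to 432 to 770 CPM in TET2-WT and 1095 to 2108 CPM in TET2-S97E, with 0 of 3 called over the clones. Adipocyte and osteoblast markers summed to at most 116 and 99.3 CPM in any library.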

How the data were processed

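Per the labels and the study's methods, total RNA depleted of ribosomal RNA was sequenced from both ends, and the authors trimmed reads with Trim Galore 0.4.5, aligned them with STAR 2.5.3a to GRCm38 and counted them per gene with featureCounts 1.5.3 on GENCODE M12. The deposited values are raw counts, 1 table per experiment, and 0 columns lacked a sample. Strand and multi-overlap settings are not given in the sources used here. Symbols and lengths came from GENCODE M21 (49326 of 49585 identifiers found).

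Counts were tested with edgeR 4.0.16 in R 4.3.3 (TMM, filterByExpr, glmQLFTest, Benjamini-Hochberg adjustment over all genes tested, threshold 0.05). The first table entered 1 model of 4 groups. TET2 genotypes were compared on counts summed per clone, and clones in a model of 4 clone groups. DESeq2 1.42.0 and limma 3.58.1 served as alternatives, and the fits were first tested on simulated data. Isoform ratios were compared by exact permutation, two-sided. Same-numbered libraries of the first table deviated together (r from 0.129 to 0.392 over group pairs), so the numbers were taken to pair them. The main fits had no term for these pairs, which entered as a block in an alternative fit alone.

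Members, gene lists and tests were chosen with earlier results of these data known. Named are all 8 members, up to 3 genes of lowest p per list and comparison, *Myod1* and *Myog*, and the 3 genes outside the family most alike to each member. *Prkaa1*, *Prkaa2*, *Ube2c* and single markers were named besides. Genes that passed the filter on low counts through the higher genotype or day alone are named as such.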

Additional observations from a re-analysis of the deposited data

Results flagged for a closer look

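In TET2-WT the library of clone 2 replicate 2 lay far above the other 3 libraries of that genotype, by Dixon's criterion for 4 values, for 6 troponin genes. It stood at 58.8 CPM for *Tnnt1*, 40.7 CPM for *Tnnt2*, 64.4 CPM for *Tnnt3*, 33.6 CPM for *Tnni1*, 14.2 CPM for *Tnni2* and 3.94 CPM for *Tnni3*. Chance puts about 1 in 20 groups of 4 independent, normally distributed values past the criterion. These are CPM values of libraries that share clones, so that rate need not hold here. The 6 genes come from 1 library, so they are not independent. The 5 myotube markers summed to 153 CPM in that library and to 20.4 CPM in the other library of the clone. Its share of counts on mitochondrial genes was 2.15%, beside 1.14, 1.00 and 1.38% in the other 3. The part of either in the troponin values was not tested.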

How the results depend on the processing

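Over fits that left out 1 library or clone, the number of troponin genes called ran from 0 to 1 for AMPK-KO against WT at d0, 0 to 2 at d8, 0 to 6 for d8 against d0 in WT, 0 to 6 in AMPK-KO, 0 to 6 for TET2-S97E against TET2-WT, 0 to 3 between TET2-S97E clones and 0 to 1 between TET2-WT clones. Of all genes 17 to 613, 107 to 902, 0 to 2260, 0 to 1737, 0 to 184, 472 to 1014 and 0 to 313 were called in the same fits. Without the filter on low counts edgeR called 4 at d0, 3 at d8, 3 for the difference between days, 3 for TET2-S97E, 6 between TET2-S97E clones and 7 between TET2-WT clones, beside 2026, 2503, 449, 113, 1680 and 1627 of all genes. DESeq2's Wald test called 2 at d0, 4 for TET2-S97E and 1 between TET2-WT clones, beside 1393, 566 and 894 of all genes. Libraries of that day alone gave 1 at d0 (beside 335), and those of the genotype alone 4 for d8 against d0 in AMPK-KO (788). For TET2-S97E, 8 libraries as replicates gave 5 (938) and limma-voom with a random effect for clone gave 2 (166). DESeq2 size factors moved no count of members by more than 1.5 times. The causes were not tested.

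With the replicate block, 0 troponin genes were called for AMPK-KO at d0 and at d8, and 6 for d8 in each genotype besides *Tnni3*, as without it. Of all genes 740, 1144, 2360 and 1854 were called, in place of 505, 766, 1771 and 1398. The block changed no call of a troponin gene in the first table. *Tnni2* at d8 turned from 0.29 to -0.025 under the block. In the TET2 table r over pairs of clones ran from -0.069 to 0.551, with 4 of 6 pairs over 0.1 and the highest value between the TET2-S97E clones. Since not every pair was over 0.1, the numbers were not taken to pair these libraries, and a replicate block with 8 libraries gave 5, beside 858 of all genes, with *Tnni3* called and *Tnni1* not.

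Fitted log2 fold changes that turned sign when 1 library was left out ran as follows. For AMPK-KO against WT at d0, *Tnni1* ran from -1.59 to 0.32 and *Tnnt2* from -0.13 to 0.47. At d8, *Tnni1* ran from -2.37 to 0.59, *Tnni2* from -1.42 to 1.06, *Tnnt1* from -0.35 to 1.61, *Tnnt2* from -2.01 to 0.021 and *Tnnt3* from -1.79 to 0.73. For the difference between days, *Tnni1* ran from -2.04 to 1.36 and *Tnnt3* from -0.85 to 1.67. Between TET2-WT clones, *Tnnt1* ran from -0.17 to 2.21 and *Tnnt2* from -0.54 to 2.51. None of these was called in the fit on all libraries.

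The log2 ratio of *Tnnt3* to the other troponin T genes depended on gene length. Without length scaling it was 2.26 (WT) and 3.25 (AMPK-KO) for d8 against d0 and -0.14 for AMPK-KO against WT at d8. With coding transcript lengths, chosen after the data were seen, these were 2.22, 3.12 and -0.21. Against *Tnnt1* alone, also chosen afterwards, it was 0.78 and -1.10 for the days, 0.73 for AMPK-KO at d0 and -1.16 at d8, with the sign turned for the days in AMPK-KO and for AMPK-KO at d0, because *Tnnt2* then leaves the denominator.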

Other observations

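The proliferation marker *Mki67* was read beside the troponin genes, a choice made after the data were seen. In the first table it stood at 192 and 319 CPM in WT d0, 280 and 264 in AMPK-KO d0, 20.2 and 22.3 in WT d8, and 62.6 and 19.9 in AMPK-KO d8. AMPK-KO d8 replicate 1, the d8 library with the lowest summed troponin (1178 CPM), was thus also the d8 library with the most *Mki67*. In the TET2 table it stood at 43.2 and 31.5 CPM in TET2-WT clone 1, 19.6 and 28.0 in TET2-WT clone 2, 95.7 and 59.6 in TET2-S97E clone 1, and 117 and 124 in TET2-S97E clone 2. There *Mki67*, summed troponin and the summed myotube markers were each higher in every TET2-S97E library than in every TET2-WT library. For the single genes *Tnnt3* and *Tnni1* the genotypes overlapped. The TET2-S97E clone with more *Mki67* was the one with less troponin. No test was run on these values.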
